A study of Mus musculus with 3 samples.

Results

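The α-arrestins were read in differentiated brown adipocytes before and after β-adrenergic stimulation, on 3 arrays of 1 sample each. The family was taken as 5 genes, Arrdc1, Arrdc2, Arrdc3, Arrdc4 and Txnip, of 18194 genes with a probe set that carries a single gene symbol here. Their probe sets were found by gene symbol, and those to be read were selected on measured signal: a probe set, which is a group of short probes for one transcript, was read where its signal reached 100 on 1 or more arrays. Of the 9 probe sets of the family 2 passed, 1 of Arrdc3 and 1 of Txnip, among 6896 genes read in all. Arrdc1, Arrdc2 and Arrdc4 stayed below that signal on every array.

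The cells were iBATs, a line of immortalized brown preadipocytes differentiated first with insulin and indomethacin and then with insulin alone, to day 8. The line derives from the stromal vascular cells of interscapular brown fat of postnatal C57BL/6 mice, immortalized with SV40 large T antigen, and all 3 arrays share that background. Isoproterenol (ISO), an agonist of all β-adrenergic receptors, was given for 0, 1 or 2 h, and gene expression was measured at each time on 1 array. None of the 3 arrays holds unstimulated cells kept for 1 or 2 h, so ISO and elapsed time cannot be told apart. A culture of 1 cell line lacks the vessels and nerves of brown fat.

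α-Arrestins are adaptors with the same fold as the β-arrestins of receptor signalling. They hold membrane proteins with their arrestin domains and recruit ubiquitin ligases of the NEDD4 family through PPxY motifs in their tails, so that the cargo is ubiquitinated and moved inside the cell. ARRDC3 is known for binding β-adrenergic receptors, and mice without it resist obesity and expend more energy. TXNIP binds and inhibits thioredoxin and removes glucose transporters from the cell surface, and it is a classic target of the glucose-sensing factors MondoA and ChREBP.

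The sequences before the transcription starts of Arrdc3 and Txnip are shown because these are the genes that were read. They were taken from RefSeq on build GRCm38.p6 and cover the 250 bases before a start, 5′ to 3′ on the strand of the gene. The Arrdc3 window shown is that of the first of 3 listed starts, chr13:80883134-80883383 on the + strand. The Txnip window is chr3:96557707-96557956 on the + strand. Capitals mark the letters of the motifs searched for, on either strand.
Arrdc3: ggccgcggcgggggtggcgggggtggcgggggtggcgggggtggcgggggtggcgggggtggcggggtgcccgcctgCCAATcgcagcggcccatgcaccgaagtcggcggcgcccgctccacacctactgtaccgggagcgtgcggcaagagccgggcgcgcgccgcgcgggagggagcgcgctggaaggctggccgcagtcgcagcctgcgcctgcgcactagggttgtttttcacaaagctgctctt
Txnip: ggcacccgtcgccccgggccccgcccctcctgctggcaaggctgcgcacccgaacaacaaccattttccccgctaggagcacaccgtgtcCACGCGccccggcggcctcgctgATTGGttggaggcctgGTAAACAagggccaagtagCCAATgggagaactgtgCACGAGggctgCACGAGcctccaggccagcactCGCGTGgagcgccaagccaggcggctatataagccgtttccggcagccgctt

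The Txnip window held a pair of CACGAG sites, from -85 to -80 and from -74 to -69 bases of the start. They read together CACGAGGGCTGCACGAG, with 5 bases between them, which is the layout of a carbohydrate response element, the site bound by MondoA and ChREBP. A pair of CACGNG sites in this orientation and at this spacing was found on either strand of 15 of 32851 RefSeq windows of the same length, which is 0.0457%. A single CACGNG, which includes the E-box CACGTG, was found in 23.5% of windows. Txnip held 4 of them, Arrdc1 held 2, and Arrdc2 and Arrdc4 held 1 each. None was found before the 3 listed starts of Arrdc3.

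The Txnip window also held GTAAACA, the core letters bound by FOXO factors, at -121 to -115, which 3.17% of windows hold on either strand. The full cyclic AMP response element TGACGTCA, present in 1.55% of windows, was in no window of the family. Its shorter form TGACG, present in 17.8%, was found once, on the other strand at -248 to -244 of the third Arrdc3 start. CCAAT was found in 33.8% of windows and in those of Arrdc2, Arrdc4, Txnip and 2 of the 3 Arrdc3 starts, with 6 copies before Arrdc4. The 3 Arrdc3 windows were rich in G and C, at 76.0%, 70.8% and 71.6% in the order of the starts, against a median of 52.4% over all windows. The motifs were chosen with these sequences in view, the first and second Arrdc3 windows overlap, and matching letters are a description and do not show binding.

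**Figure D1:**
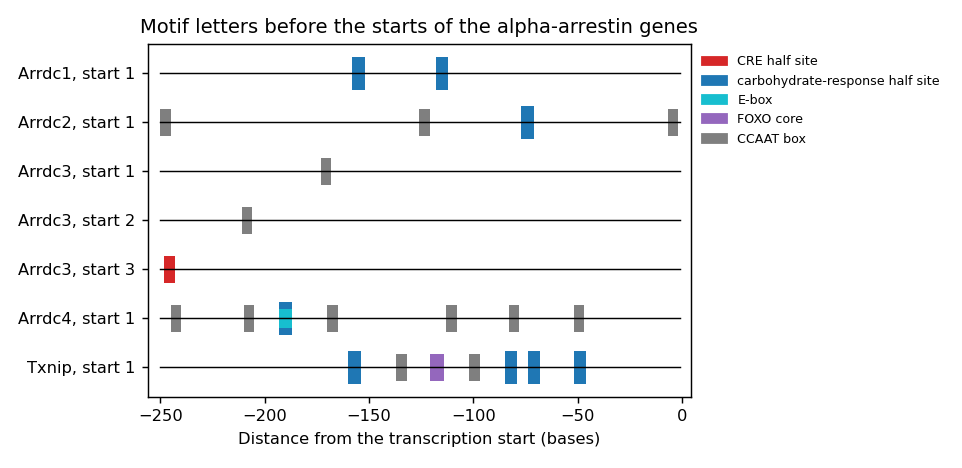
Places of motif letters (coloured boxes) in the 250 bases before each RefSeq start of the α-arrestin genes, with distance from the start in bases on the horizontal axis and 1 row per start. Txnip holds 4 CACGNG sites (blue), of which the pair from -85 to -69 is spaced by 5 bases, and the Arrdc3 rows hold none.

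On its 1 probe set the signal of Arrdc3 was 145.7 before ISO, 557.1 after 1 h and 603.6 after 2 h. This is 3.82-fold of the signal before ISO after the first hour and 4.14-fold after the second, and nearly all of the rise fell in the first hour. As log2 ratios these steps are 1.93 (1 h to 0 h) and 2.05 (2 h to 0 h), with 0.12 between the later arrays. All 3 arrays were above a signal of 100. The 0 h signal of 145.7, which both ratios to 0 h share, was however not far above that limit. With 32 added to each signal these log2 ratios were 1.73 and 1.84, so their size depends in part on a rather dim denominator. The values are MAS5 signals, linear intensities scaled so that each array has the same trimmed mean, and 1 array per time point leaves no replicate error and no test.

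In place of a replicate error, Arrdc3 was set beside the 200 genes nearest to it in mean signal, from 416.7 to 455.1. This mean includes the signals after ISO, so the range lies above the 0 h signal of 145.7. The same holds for Txnip below, and the spread among genes near the 0 h signals was not calculated. The log2 ratio of the 200 genes had a robust spread of 0.12 at 1 h and 0.21 at 2 h, which holds real change as well as noise. None of the 200 had as high a ratio as Arrdc3 at either time. For 2 h over 1 h their spread was 0.18 and 52 of them were at least as high, so the 1 and 2 h signals of Arrdc3 did not differ beyond it. Over all 6896 genes Arrdc3 had the 34th highest ratio at 1 h and the 42nd highest at 2 h.

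On its read probe set the signal of Txnip was 570.3 before ISO, 1046.3 after 1 h and 868.6 after 2 h. Relative to 0 h it stood at 1.83-fold and then at 1.52-fold, so the highest of its 3 signals was at 1 h. The log2 ratios to 0 h were 0.88 and 0.61, and the second hour alone gave -0.27. On these single arrays the Txnip signal at 2 h lay between those of 0 and 1 h, whereas the 2 h signal of Arrdc3 was close to that of 1 h. The second, dimmer probe set of Txnip had signals of 48.9, 98.3 and 88.9, which is 2.01-fold and 1.82-fold of 0 h. Its log2 ratio of 2 h over 1 h was -0.145, smaller in size than the -0.27 of the read one. Both probe sets of Txnip had the same order, with 1 h highest and 0 h lowest, although the dimmer one stayed just below 100 and was not read.

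Among the 200 genes nearest to Txnip in mean signal, from 777.0 to 882.7, log2 ratios had a robust spread of 0.12 (1 h) and 0.17 (2 h). Of these, 1 had as high a ratio as Txnip at 1 h and 4 at 2 h. For 2 h over 1 h the spread was 0.16, and 189 of the 200 were at least as high as Txnip. Over all genes read the Txnip ratio ranked 94th from the highest at 1 h and 267th at 2 h, and that of 2 h over 1 h ranked 716th from the lowest. The second-hour log2 ratio of -0.27 thus stood against a spread of 0.16, and the first-hour ratio of 0.88 against one of 0.12.

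A change was called where the log2 ratio was at least 0.8 in size, which is 1.74-fold, the threshold the study used for 1 h; this is a size and not a test. At 1 h both α-arrestins read, Arrdc3 and Txnip, were called higher and none lower, where 1.58% of all genes read were called higher and 0.218% lower. At 2 h Arrdc3 was called higher, Txnip was not called at 0.61 on its read probe set, and 2.73% of all genes were called higher and 0.812% lower. The dimmer probe set of Txnip, not read, was past the threshold at both times, with log2 ratios of 1.01 and 0.86. For 2 h over 1 h neither gene was called, where 0.667% of genes were called higher and 0.319% lower. With each array scaled to the same median, these last calls are 37 higher and 28 lower in place of 46 and 22. The comparisons share arrays, the 0 h array most of all, and are therefore not independent. The genes were chosen with results of these arrays known, so that the counts describe them and support nothing further.

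Of the 109 genes called higher at 1 h, 95 were also called higher at 2 h, Arrdc3 among them. Txnip was one of the other 14. In terms of the second hour alone, 51 of the 109 had a lower signal at 2 h than at 1 h, as Txnip had, and 58 had a higher one, as Arrdc3 had. Txnip at 1 h lay close to the threshold, and with a threshold of 2-fold Arrdc3 alone is called. That and the missing call of Txnip at 2 h rest on 1 of its 2 probe sets, since the dimmer one was at 2.01-fold at 1 h.

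**Figure D2:**
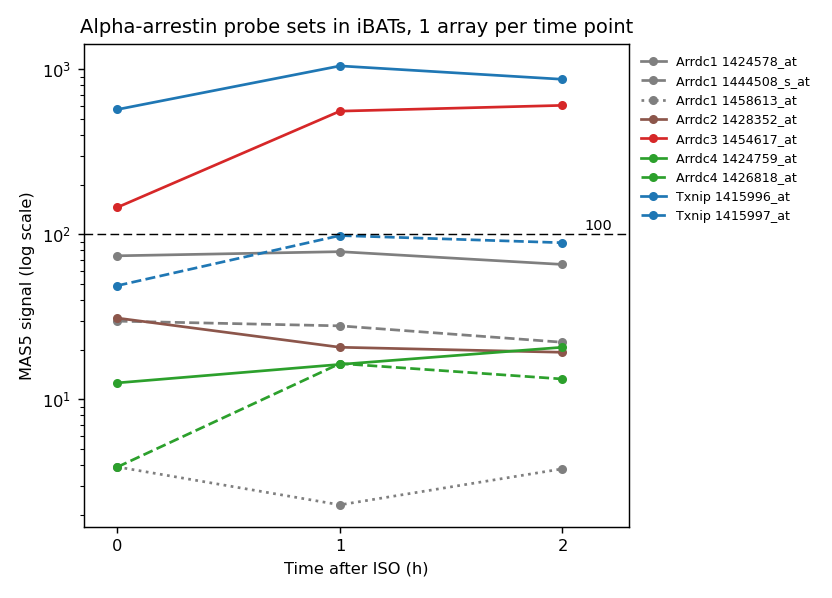
Time course of the 9 α-arrestin probe sets, with hours of ISO on the horizontal axis and MAS5 signal on a logarithmic vertical axis; each point is 1 array, so there are no error bars. Arrdc3 (red) goes from 145.7 to 603.6, the read Txnip probe set (solid blue) is highest at 1 h, and the other 7 lie below the dashed line at 100.

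The other α-arrestins are given by their signals, and none was read for a call. Arrdc1, whose product buds vesicles from the plasma membrane with the ESCRT protein TSG101, had signals of 74.1, 78.5 and 65.7 at 0, 1 and 2 h on its brightest probe set. A further Arrdc1 probe set had signals of 29.8, 27.9 and 22.2, and the third had 3.9, 2.3 and 3.8. The lowest signal of the brighter pair was at 2 h in each case, with log2 ratios to 0 h of -0.17 and -0.42. Arrdc2 had signals of 31.1, 20.7 and 19.3 on its single probe set, which gives log2 ratios of -0.59 and -0.69. Its order was thus opposite to that of Arrdc3, with the 0 h signal the highest, on signals far below 100.

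Arrdc4 encodes the closest relative of TXNIP, which also limits glucose uptake. Its brighter probe set had signals of 12.6, 16.3 and 20.7, and the other had 3.9, 16.5 and 13.3. Both were lowest at 0 h, but they differed in whether 1 h or 2 h was highest. The log2 ratio at 1 h was 0.37 on the brighter probe set and 2.08 on the other, and no size of change can be taken from signals this low. The probe sets just outside the signal limit were the dimmer one of Txnip, at most 98.3, and the brightest of Arrdc1, at most 78.5. The nearest inside it was Arrdc3, whose highest signal of 603.6 lay far above the limit. Signals of different probe sets are not amounts of RNA that can be set against each other, so no order of abundance among the 5 genes is given.

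Genes with a course like that of Arrdc3 were sought by the distance between log2 ratios at 1 and at 2 h over the 3 arrays. The nearest was Fosl2, an AP-1 factor, at 1.91 and 2.13, with a distance of 0.08 from Arrdc3. It was followed by Dnaja4, a chaperone of the HSP40 family, at 2.01 and 2.08, and by Slc25a25, a mitochondrial ATP carrier regulated by calcium, at 2.12 and 2.02. Cxcl1, a chemokine, was at 1.84 and 2.22, and Cbarp, a regulator of calcium channels, was at 2.13 and 2.09. Dnaja4, Slc25a25 and Cbarp had 0 h signals of 31.6, 33.7 and 34.8, below the limit of 100, whereas Fosl2 and Cxcl1 had 225.0 and 131.3.

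The course of Txnip was closest to that of Adamts1, a matrix metalloprotease, at 0.86 and 0.64 and with a distance of 0.04. Smad6, an inhibitor of BMP signalling, was at 0.82 and 0.60, and Enc1, an actin-binding protein, was at 0.83 and 0.54. Kdm6b, an H3K27 demethylase, was at 0.72 and 0.67, and Midn, which encodes midnolin, was at 1.02 and 0.51. All 5 had a lower signal at 2 h than at 1 h, as Txnip had, which follows largely from choosing them by these ratios. A course is only 3 signals that share the 0 h array, and many genes can lie near any such point.

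**Figure D3:**
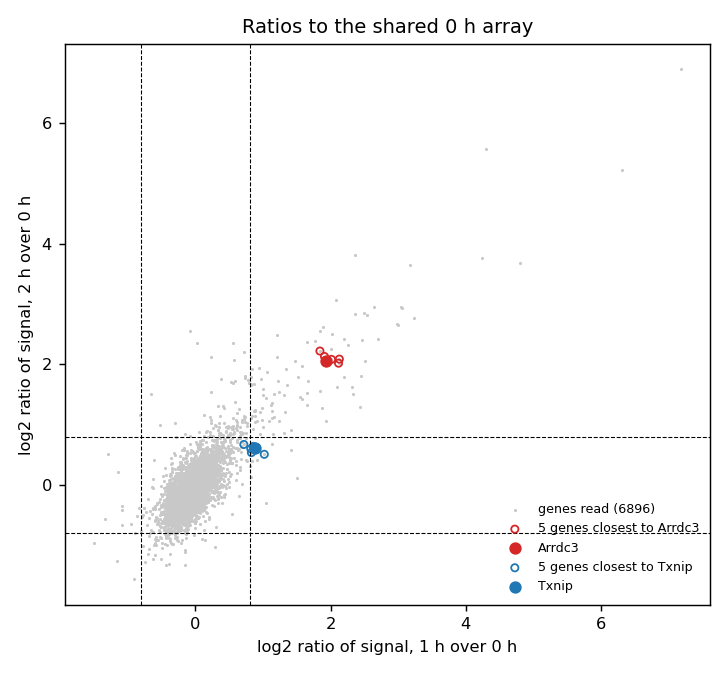
Log2 ratio of MAS5 signal at 2 h over 0 h (vertical axis) against that at 1 h over 0 h (horizontal axis) for the 6896 genes read (grey), with Arrdc3 (red), Txnip (blue) and the 5 genes closest to each (open circles). Dashed lines mark a log2 ratio of 0.8 in size; Arrdc3 lies past both upper lines at 1.93 and 2.05, and Txnip past the 1 h line at 0.88 and 0.61. Both axes use the same 0 h array.

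The genes that α-arrestins work with were described by lists. All lists below were chosen with earlier results of these data known, so their counts describe them and support nothing further. Of 8 other arrestin-fold genes with a probe set here 4 were read, and none of these was called in any comparison. Over all genes read 1.58% were called higher and 0.218% lower at 1 h, and 2.73% and 0.812% at 2 h. No call among 4 genes is close to these shares. Vps26a, a retromer subunit, was at 0.12 after 1 h and at 0.10 after 2 h on the log2 scale. The β-arrestin gene Arrb2 had signals of 108.4, 99.4 and 79.7, log2 ratios of -0.13 and -0.44. Arrb1, the other β-arrestin gene, was below 100 with signals of 61.2, 50.9 and 52.0, and Arrdc5, a further α-arrestin-like gene, had at most 10.2. Vps26b and Vps26c were at -0.02 and -0.15 at 1 h and at -0.20 and -0.54 at 2 h. Its median log2 ratios were -0.07 and -0.32, where those of all genes read were -0.02 and -0.07. No read gene of this list was thus past the threshold that Arrdc3 passed at both times. Those not read, Arrb1 and Arrdc5 among them, were too dim for a call in either direction.

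Of 11 genes of ubiquitin ligases that bind PPxY motifs and their adaptors 8 were read, and none of these was called. Over all genes read 1.58% were called higher and 0.218% lower at 1 h, and 2.73% and 0.812% at 2 h. No call among 8 genes is close to these shares, here and for the ESCRT genes below. The 8 lay between -0.02 and 0.18 at 1 h and between -0.32 and 0.15 at 2 h. Nedd4 itself had signals of 2263.7, 2239.7 and 1809.0. Ndfip1 and Ndfip2, membrane adaptors that activate these ligases, had log2 ratios of 0.01 and 0.01 at 1 h and of 0.09 and 0.14 at 2 h. Of 8 ESCRT genes, which sort ubiquitinated cargo and include the ARRDC1 partner Tsg101, none was called, with log2 ratios from -0.30 to 0.18 at 1 h and from -0.37 to 0.33 at 2 h. Tsg101 was at 0.09 and -0.05.

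TXNIP acts on the thioredoxin system of redox control. Of 8 members read none was called. Over all genes read 1.58% were called higher and 0.218% lower at 1 h, and 2.73% and 0.812% at 2 h, so no call among 8 is close to these shares. The log2 ratios of the 8 ran from -0.18 to 0.12 at 1 h and from -0.15 to 0.16 at 2 h. Txn1, the thioredoxin that TXNIP inhibits, had signals of 3186.7, 3180.7 and 3198.1 at 0, 1 and 2 h. Txnrd1, the cytosolic thioredoxin reductase, was at 0.07 and 0.16. The Txn1 signals thus lay close together at the times at which that of Txnip differed. The β-adrenergic receptor genes, whose products ARRDC3 binds, were not analysed here.

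Among genes of glucose entry, the process that TXNIP and ARRDC4 restrain, none of 4 read was called at 1 h and 2 were called higher at 2 h, where 1.58% and 2.73% of all genes read were called higher. Slc2a1, the transporter GLUT1, had signals of 523.1, 666.2 and 1065.6 and reached a log2 ratio of 1.03. Hk2, a hexokinase, had 552.9, 923.0 and 1201.7 and reached 1.12. The 3 read probe sets of Slc2a1 had log2 ratios of 1.15, 1.03 and 0.76 at 2 h. Both genes were highest at 2 h, whereas Txnip was highest at 1 h. Slc2a4, the insulin-regulated transporter GLUT4, was at -0.34 and -0.50. Its other read probe set was at 0.15 and -0.34, so the sign at 1 h differed between them. Hk1 was at -0.15 and 0.12. The list's median log2 ratios were 0.10 and then 0.57, beside -0.02 and -0.07 over all genes read.

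Of 6 read factors and targets of the glucose-sensing MondoA and ChREBP pathway, 2 were called higher at each time and none lower, where 1.58% of all genes were called higher at 1 h and 2.73% at 2 h, with 0.218% and 0.812% lower. Klf10, a transcriptional repressor, had signals of 158.9, 395.4 and 289.7, with log2 ratios of 1.32 and 0.87. Its 1 h signal was the highest, as for Txnip. Bhlhe40, a repressor that also belongs to the clock, was at 2.25 and 2.31. Of the pathway's own factors, those read were below the threshold, with Mlxipl (ChREBP) at -0.09 and -0.15. Mlx, the shared partner of ChREBP and MondoA, was at 0.06 and -0.39. Mlxip, the gene of MondoA, had signals of 90.8, 90.2 and 86.7 and was not read. The lipogenic targets Thrsp and Gpd1 were at 0.47 and 0.24 at 1 h and at 0.02 and -0.11 at 2 h. Their other read probe sets were at 0.44 and 0.27 at 1 h and at 0.16 and 0.27 at 2 h. The list's median was 0.36 at 1 h and -0.05 at 2 h, and that of all genes was -0.02 and -0.07.

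Of 12 read genes known to respond to glucocorticoids or FOXO factors, as Txnip does, 2 were called higher at 1 h, where 1.58% of all genes were. At 2 h 4 were called higher and 1 lower, where 2.73% and 0.812% of all genes were. The list's median was 0.05 and 0.18, and that of all genes -0.02 and -0.07. Irs2 and Ddit4 were called at both times, at 2.94 each at 2 h. Sgk1, a kinase, had log2 ratios of 0.73 and 1.04, and Ccng2, an atypical cyclin under FOXO control, had 0.16 and 0.88. Sesn1, a stress-induced inhibitor of mTOR signalling, was called lower at 2 h, from 202.5 to 86.4, which is a log2 ratio of -1.23. Its other read probe sets were at -0.59 and -1.11. Klf9 and Sesn3 were at -0.03 and -0.04 at 1 h and at 0.06 and -0.23 at 2 h. Foxo1 was at 0.37 and 0.53, and its other read probe set was at 0.32 and 0.63. Klf15 was at -0.43 and -0.51, and Tsc22d3 (GILZ) was at -0.41 and -0.71. The members of this list thus moved in both directions, and neither Arrdc3 nor Txnip was a member.

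**Figure D4:**
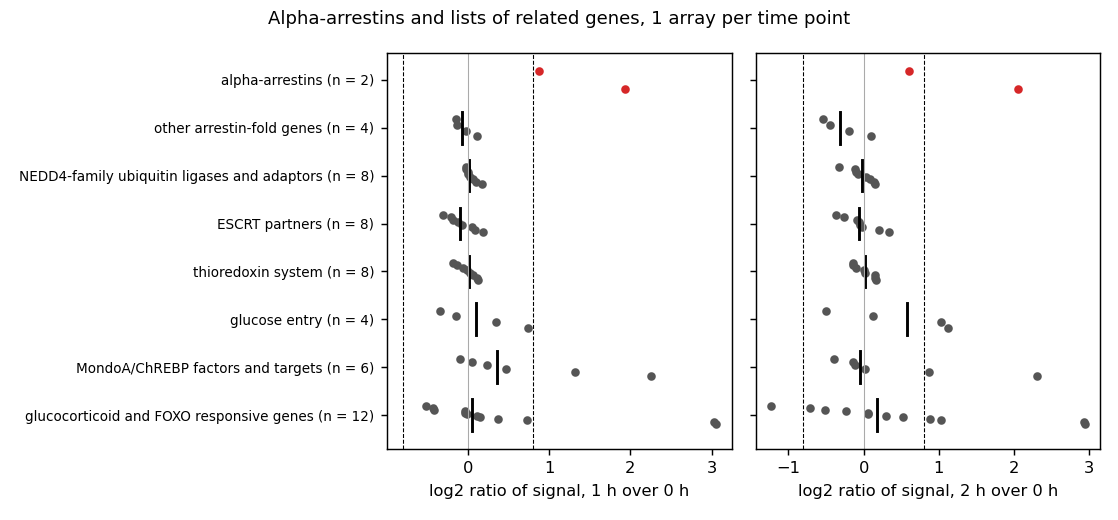
Log2 ratio of MAS5 signal at 1 h (left) and 2 h (right) over 0 h for the read members of each list (a row for each list and a point for each gene, from 1 array a time), with the α-arrestins in red. Black bars are medians of lists with more than 2 members and dashed lines mark a log2 ratio of 0.8 in size; the NEDD4-family, ESCRT and thioredoxin rows have no point past them, and Slc2a1 and Hk2 pass at 2 h.

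The cells carried the markers of their label. All 4 adipocyte markers with a probe set here were read, and Ucp1, the uncoupling protein of brown fat, went from 1485.7 to 3673.2 and 4166.1, while Dio2 and Elovl3 were below 100. The other brown adipocyte markers read were below the threshold, with Cidea at 0.00 and 0.40, Cox7a1 at -0.06 and -0.18 and Cox8b at -0.21 and -0.44, and the median of the 4 read was -0.03 and then 0.11. None of 7 macrophage and leukocyte, 4 endothelial and 5 muscle markers reached 100 on any array, with Cd14 highest at 93.2. Of 6 preadipocyte and fibroblast markers 4 were read, with log2 ratios from -0.18 to 0.14 at 1 h and from -0.07 to 0.18 at 2 h. Their 0 h median was 437.1, and the part of undifferentiated cells in the Arrdc3 and Txnip signals was not tested. In such a culture fewer cells of a type and less RNA per cell cannot be told apart.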

How the data were processed

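Gene expression in iBATs was measured on 3 Affymetrix mouse arrays, 1 per time point. The authors computed MAS5 signals and deposited 1 linear intensity per probe set and array, with a mean of 100.0 after 2% is trimmed from each end. The submitters' processing notes name MAS5. The methods' filter on absent calls and low values is not applied in the deposited table.

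Gene symbols came from the platform annotation. Of 45101 probe sets 34958 carried a single symbol; the 932 with several were left out and 9211 had no name here. Log2 ratios were calculated with pandas 2.3.3, numpy 2.4.6 and Python 3.11.15, with signals of 0 set to 0.1. A gene was read from its probe set of highest mean signal among those of at least 100 on 1 or more arrays. The calculation was tested on simulated data. The 12 alternatives used limma 3.58.1 in R 4.3.3 for normalization, and figures used matplotlib 3.10.9. Depth is not defined for arrays, and their number limits the precision.

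The members and lists were chosen with earlier results of these data known. Named genes are every α-arrestin and the 5 genes nearest to each read α-arrestin. From each list the members past a log2 ratio of 0.8 and up to 4 of the brightest others were named. Arrb1, Arrdc5, Mlxip, Tsg101, Txnrd1, Tsc22d3 and the markers were named after their values were seen. The robust spread is 1.4826 times the median absolute deviation.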

Additional observations from a re-analysis of the deposited data

How the results depend on the processing

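Under all 12 alternatives Arrdc3 was called higher at 1 and 2 h, with log2 ratios from 1.73 to 2.03 and from 1.84 to 2.08, and Txnip was not called at 2 h, at 0.57 to 0.63. Txnip was called at 1 h, at 0.84 to 0.97, under every alternative except a threshold of 2-fold, where its 0.88 ends the call and 1 α-arrestin is called in place of 2. The dimmer Txnip probe set, below 100 on all arrays, is read in none of these settings and had log2 ratios of 1.01 and 0.86. For 2 h over 1 h Arrdc3 was at 0.04 to 0.14 and Txnip at -0.35 to -0.24. Most of these alternatives leave the signals of both genes as they are, and other arrays of the same time points were not analysed here.

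The counts over all genes depend on the filter. The 124 genes called at 1 h are 61 when all 3 arrays must reach 100 and 4369 of 18194 with no filter. The 244 at 2 h are 121 and 4574 in these settings, 151 with at least 200 on 1 or more arrays, 159 with signals below 100 set to 100 and 148 at 2-fold. The 68 for 2 h over 1 h are 21, 4246, 34, 38 and 36 in the same order, 39 with 32 added and 106 with any read probe set. In the lists of related genes 4, 9 and 0 of 50 genes were called in the 3 comparisons. Over all genes these calls were 124, 244 and 68 of 6896. With no filter the lists had 9, 14 and 4 of 65, where all genes had 4369, 4574 and 4246 of 18194. The shares of the lists then lie below those over all genes. No paired analysis was possible because each time point has 1 array.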
